A study of Mus musculus with 4 samples.

Results

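The 10 genes described here present antigens to T cells, and they were taken as a fixed list of names: H2-K1, H2-D1, B2m, Tap1 and Tap2 of the class I pathway, and H2-Aa, H2-Ab1, H2-Eb1, Cd74 and Ciita of the class II pathway. An open region counted towards a gene if any base of it fell inside the gene or in the 10 kb on either side, in mm10. All 10 genes were placed, of 21887 protein-coding genes, and 39 merged regions fell at their loci, of 61972 in the series. The loci of H2 and Tap genes lie close together on chromosome 17, so 5 of the 39 regions were counted for 2 of the genes, and totals over several genes count each region once.

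Accessible DNA, which the transposase of ATAC-seq can cut and tag, was mapped in snap-frozen lung tumours of 4 mice of the strain labelled C57B6J, aged 55 weeks. The 2 KrasLA1;Dicer1S2D tumours came from mice of genotype KrasLA1/+;Dicer1S2D/+, with replicate 1 female and replicate 2 male. The 2 KrasLA1 tumours came from KrasLA1/+ mice, again with replicate 1 female and replicate 2 male, so all 4 animals carried the KrasLA1 allele and sex was the same division of the libraries as replicate number. KrasLA1 is a latent oncogenic allele that becomes active by spontaneous recombination in scattered cells, and Dicer1S2D is a phosphomimetic allele of Dicer1, whose product cuts microRNA precursors. The alleles were present in the whole animal, and each sample was bulk tumour tissue that also holds stroma and immune cells. The labels speak of tumours in the plural and do not say whether a sample pooled several from its mouse.

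The authors' peaks, called in each library on its own, have a position and a width but no height or count, and the number of reads is unknown. The libraries held 34767 to 50282 peaks covering 19 to 27.9 Mb, and the median peak width ran from 410 bp in KrasLA1;Dicer1S2D replicate 1 to 534 bp in KrasLA1 replicate 2. KrasLA1;Dicer1S2D replicate 2 had the fewest peaks, and KrasLA1 replicate 2 had the most bases under peaks, so values at the loci are also given per Mb of sequence under all peaks of the library. At 8 of 8 alveolar type 2 genes and 4 of 4 epithelial genes, all 4 libraries had a peak less than 2 kb from an end of the gene, as at 71.2% of all genes with a region. This held at 2 of 6 myeloid, 2 of 4 dendritic, 1 of 5 B cell and 0 of 4 T cell genes with regions.

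Class I molecules are found on nearly all nucleated cells and show peptides from the cell's own proteins to cytotoxic T cells. H2-K1 and H2-D1 encode their heavy chains, B2m the light chain, and Tap1 with Tap2 the transporter that carries peptides into the endoplasmic reticulum. Class II molecules are typical of dendritic cells, macrophages and B cells, and alveolar type 2 cells of the lung also carry them. H2-Aa encodes an alpha chain, H2-Ab1 and H2-Eb1 encode beta chains, Cd74 encodes the invariant chain that guards the peptide groove, and Ciita is the coactivator that switches class II genes on. Class II promoters are known for an X box bound by RFX factors, followed by a Y box, whose core, CCAAT, is bound by NF-Y.

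Promoter sequences are shown because these are the open sites that all tumours shared, and because the motif cores known for this pathway can be read in them. Of the 10 genes, 6 matched a RefSeq promoter (GRCm38.p6, 250 bases before to 50 after the start site), with 7 start sites, since H2-K1 had 2. H2-Ab1, Tap2, Cd74 and Ciita were not matched. The letters searched on both strands were CCAAT, GAAA followed by any 2 bases and GAAA (the core of an interferon response element), TGACGT (a CRE-like site, as in the X2 box) and CCTNGNNAC (part of the X1 box), and every match is in capitals. A match on the other strand appears as its reverse complement, such as ATTGG for the first of these.
H2-K1, chr17:34000298-34000597, strand -: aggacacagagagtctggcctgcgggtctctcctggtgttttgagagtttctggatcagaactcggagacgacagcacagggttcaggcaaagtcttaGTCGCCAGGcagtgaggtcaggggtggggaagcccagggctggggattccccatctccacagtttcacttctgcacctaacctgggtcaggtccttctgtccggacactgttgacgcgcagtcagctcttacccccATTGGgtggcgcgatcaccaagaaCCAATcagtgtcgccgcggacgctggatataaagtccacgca
H2-D1, chr17:35262844-35263143, strand +: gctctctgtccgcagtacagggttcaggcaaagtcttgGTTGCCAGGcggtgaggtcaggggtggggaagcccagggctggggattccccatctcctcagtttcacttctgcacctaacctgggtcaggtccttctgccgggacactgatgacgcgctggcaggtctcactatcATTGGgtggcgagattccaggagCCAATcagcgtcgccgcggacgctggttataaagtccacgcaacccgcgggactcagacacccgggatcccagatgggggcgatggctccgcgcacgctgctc
B2m, chr2:122147437-122147736, strand +: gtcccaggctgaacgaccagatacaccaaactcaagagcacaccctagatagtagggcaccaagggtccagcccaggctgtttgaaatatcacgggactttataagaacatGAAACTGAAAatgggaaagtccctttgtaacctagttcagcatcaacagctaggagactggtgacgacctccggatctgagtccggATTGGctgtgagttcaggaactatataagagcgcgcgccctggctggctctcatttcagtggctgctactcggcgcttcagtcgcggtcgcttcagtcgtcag
H2-Aa, chr17:34287774-34288073, strand -: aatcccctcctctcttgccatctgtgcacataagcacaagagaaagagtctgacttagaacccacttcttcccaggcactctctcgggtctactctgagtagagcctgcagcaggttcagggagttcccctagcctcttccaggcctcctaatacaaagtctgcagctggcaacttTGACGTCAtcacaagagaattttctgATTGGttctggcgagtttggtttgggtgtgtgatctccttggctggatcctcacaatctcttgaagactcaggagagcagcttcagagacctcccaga
H2-Eb1, chr17:34305617-34305916, strand +: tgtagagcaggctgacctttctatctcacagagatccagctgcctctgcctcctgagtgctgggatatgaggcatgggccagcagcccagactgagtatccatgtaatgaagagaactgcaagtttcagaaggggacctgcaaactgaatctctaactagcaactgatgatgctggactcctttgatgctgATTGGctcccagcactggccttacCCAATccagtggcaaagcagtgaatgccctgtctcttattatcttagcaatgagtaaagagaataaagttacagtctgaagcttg
That first core stands in all 5 promoters on 1 or both strands, and Tap1, not printed, held 1 match 222 bases before its start site. In the printed H2-K1 promoter, CCAAT began 9 bases after the start site and ATTGG 16 bases before it. Counted from the second H2-K1 start site, the same matches began 6 and 30 bases before it. In H2-D1 they began 53 and 76 bases before the start site. In RefSeq promoters as a whole, 12289 of 32851 (37.4%) held this core. In H2-Aa, TGACGT and its reverse complement overlapped in TGACGTCA, beginning 74 bases before the start site, with ATTGG beginning 48 bases before it. TGACGT was in 7.51% of all promoters and in no other of the promoters searched here. B2m held GAAACTGAAA, beginning 139 bases before its start site, a match of the interferon response core, which 3.44% of all promoters held. H2-K1 and H2-D1 had CCTNGNNAC on the other strand, as GTCGCCAGG and GTTGCCAGG, and 15.8% of all promoters held it. The aligned promoters of H2-D1 and H2-K1 were identical at 211 of 239 positions (88.3%). The sources used here do not say how reads matching several class I genes were placed, so peaks at these paralogs are less certain than the others.

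The promoters were open in all 4 tumours. Of the 300 bases of each, 300 lay under a peak in every library at H2-K1, H2-D1 and Tap1. At B2m it was 271 and 300 bases in KrasLA1;Dicer1S2D replicates 1 and 2, and 300 in both KrasLA1 libraries. H2-Aa had 300 and 300 bases under a peak in KrasLA1;Dicer1S2D replicates 1 and 2, and 220 and 300 in KrasLA1 replicates 1 and 2. H2-Eb1 had 224 and 226 bases in the KrasLA1;Dicer1S2D libraries, and 244 and 278 in the KrasLA1 libraries. Among all 31396 autosomal promoters, 34.8% overlapped a peak in all 4 libraries.

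**Figure D1:**
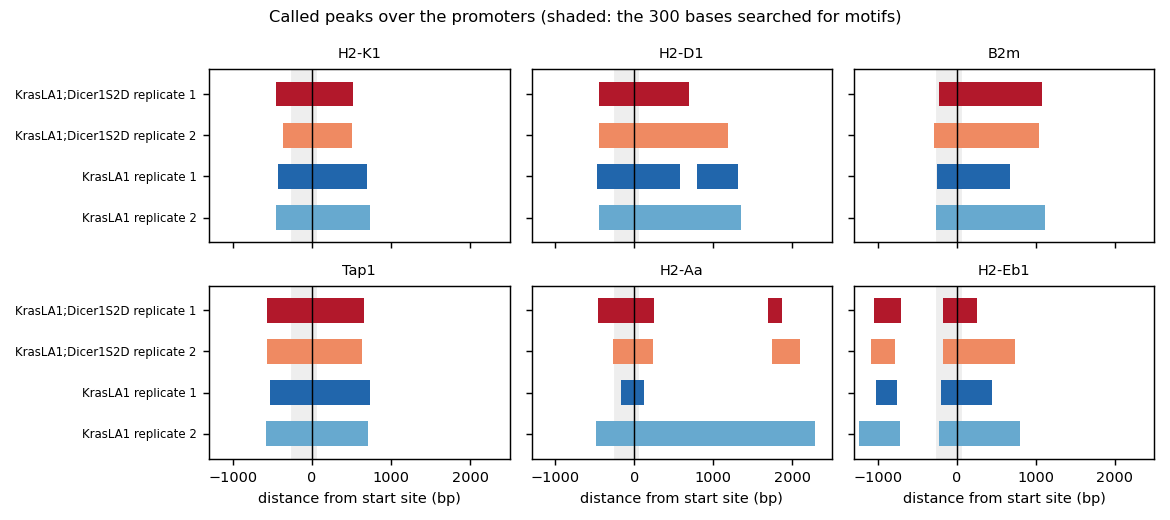
Called peaks around the start sites of 6 genes, with distance from the start site in bp on the horizontal axis and 1 row per library. Every library has a peak over each start site, and at H2-Aa the peak spans 2772 bp in KrasLA1 replicate 2, against 703 and 504 bp in KrasLA1;Dicer1S2D replicates 1 and 2 and 297 bp in KrasLA1 replicate 1.

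The genotypes shared most of the open regions at these loci. Of the 39 regions, 22 (56.4%) were called in all 4 tumours, 2 in 3, 5 in 2 and 10 in 1. Of the 60713 autosomal regions, which include those far from genes, 43.5% were called in all 4. Gene by gene, the median share of regions called in all 4 was 58.3% for the 10 genes and 50.0% for all genes with a region. No region was seen in each KrasLA1;Dicer1S2D tumour but absent from each KrasLA1 tumour, a pattern that 0.596% of autosomal regions followed. A single region, inside Ciita, had the reverse pattern, as had 1.42% of autosomal regions. By gene, 0 of 10 had a region of the first kind, against 1.78% of the 15882 genes with a region, and 1 of 10 had one of the second kind, against 4.87%. These counts describe 4 libraries, carry no test, and are near the background. They rest on single libraries: the first pattern had 4 regions when KrasLA1;Dicer1S2D replicate 2 was left out and 3 when KrasLA1 replicate 2 was, and the reverse had 4 regions without either KrasLA1 replicate. The shares of all autosomal regions under these omissions were not counted. With all libraries kept, 4 of the 39 regions were called in KrasLA1;Dicer1S2D replicate 1 alone, beside 7189 of the 60713 autosomal regions.

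Every one of the 10 genes except Ciita had a peak less than 2 kb from an end of the gene in all 4 libraries, as 71.2% of all genes with a region did. Ciita had one there in 2 libraries, KrasLA1;Dicer1S2D replicate 1 and KrasLA1 replicate 2. The median number of regions was 3.5 per gene for the 10 genes and 3 per gene for all genes with a region.

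Among the class I genes, H2-K1 had the simplest locus, with 1 region (chromosome 17, 33999611 to 34000801) that spans its start site. The peak was 976 and 876 bp wide in KrasLA1;Dicer1S2D replicates 1 and 2, and 1125 and 1191 bp in KrasLA1 replicates 1 and 2. The genotypes did not overlap, with wider peaks in KrasLA1, but after centring on the median of each library the difference in log2 width was -0.16 ± 0.21 (SE, limma, adjusted p = 0.999, n = 2 tumours each). Without centring, 73.1% of all 26402 shared regions had a log2 width difference below 0.

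H2-D1 had 3 regions. The one at its start site (chromosome 17, 35262626 to 35264443) held 1142 and 1632 bp of peak in KrasLA1;Dicer1S2D replicates 1 and 2, and 1572 and 1800 bp in KrasLA1 replicates 1 and 2. In KrasLA1 replicate 1 it was called as 2 separate peaks, of 1052 and 520 bp. A second region, 4640 bp upstream of the gene (35258060 to 35258454), was called in all 4 tumours with 304 to 395 bp. The third, 7189 bp beyond the gene (35274686 to 35275011), was called in the male tumour of each genotype, with 319 bp in KrasLA1;Dicer1S2D replicate 2 and 256 bp in KrasLA1 replicate 2.

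B2m, on chromosome 2, had an open start site (122147405 to 122148799), with 1305 and 1319 bp of peak in KrasLA1;Dicer1S2D replicates 1 and 2, and 919 and 1373 bp in KrasLA1 replicates 1 and 2. The genotypes overlapped, and the centred difference in log2 width was 0.39 ± 0.23 (SE, limma, adjusted p = 0.999, n = 2 tumours each). The second region, 5292 bp beyond the gene (122158374 to 122158865), was called in the female tumour of each genotype and overlaps the neighbouring gene Patl2.

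Tap1 and Tap2 lie in 1 cluster with Psmb9 and Psmb8, genes for subunits of the immunoproteasome, which trims proteins to peptides. The region at the start of Tap1 (chromosome 17, 34186971 to 34188286) also overlaps Psmb9 and was the most even of the cluster, at 1234 and 1210 bp in KrasLA1;Dicer1S2D replicates 1 and 2 and 1265 and 1294 bp in KrasLA1 replicates 1 and 2. The next, 34197429 to 34198689, overlaps Psmb8 and was 998 to 1261 bp wide. At this region and at the start of Tap1, the KrasLA1;Dicer1S2D peaks were narrower without overlap. Tap2 had a region at its lower end (34204391 to 34204831) of 358 to 441 bp, called in all 4 tumours. Inside Tap2, a region at 34205281 to 34206144 varied more, with 158 and 483 bp in KrasLA1;Dicer1S2D replicates 1 and 2, and 0 and 864 bp in KrasLA1 replicates 1 and 2. Beyond the upper end of Tap2, a region at 34218494 to 34219339 had 765 and 690 bp in KrasLA1;Dicer1S2D replicates 1 and 2, and 601 and 721 bp in KrasLA1 replicates 1 and 2, and the groups overlapped. A pair of small peaks inside Tap1, of 227 and 167 bp, were called in KrasLA1;Dicer1S2D replicate 1 alone.

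**Figure D2:**
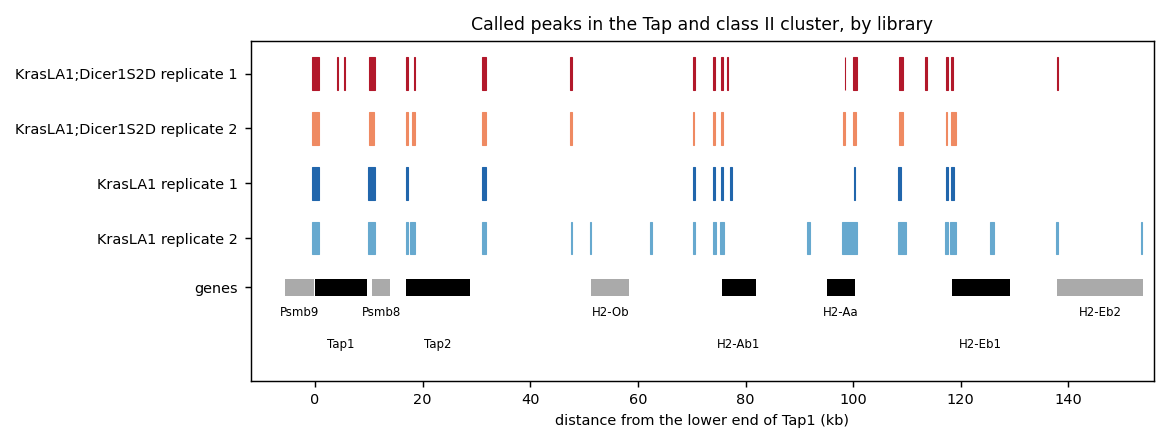
Called peaks over the Tap and class II cluster of chromosome 17, drawn to scale in kb from the lower end of Tap1, with 1 row per library and the genes below (black for the genes described here, grey for their neighbours). The blocks at Tap1 look alike in the 4 rows, and the block over H2-Aa is widest in KrasLA1 replicate 2.

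The class II loci varied more from tumour to tumour. H2-Aa stood out: the region at its start site (chromosome 17, 34285535 to 34288306) held 883 and 865 bp of peak in KrasLA1;Dicer1S2D replicates 1 and 2, each as 2 peaks, and 297 and 2772 bp in KrasLA1 replicates 1 and 2. The KrasLA1 tumours were therefore the lowest and the highest of the 4, with the others between them. The centred difference in log2 width was 0.11 ± 0.93 (SE, limma, adjusted p = 0.999, n = 2 tumours each). A region between H2-Aa and H2-Eb1 (34295956 to 34297330) had the same libraries at its extremes, with 734 and 629 bp in KrasLA1;Dicer1S2D replicates 1 and 2, and 541 and 1348 bp in KrasLA1 replicates 1 and 2.

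H2-Eb1 had 6 regions. At its start site (34305639 to 34306666) the peak was 429 and 916 bp wide in KrasLA1;Dicer1S2D replicates 1 and 2, and 637 and 1028 bp in KrasLA1 replicates 1 and 2. The region 704 bp before it (34304629 to 34305163) was 347 and 299 bp in KrasLA1;Dicer1S2D replicates 1 and 2, and 273 and 525 bp in KrasLA1 replicates 1 and 2. Both were widest in KrasLA1 replicate 2, which was also the only library with a further peak inside the gene (34313049 to 34313685, 637 bp). A region of 459 bp below the gene (34300858 to 34301316) was called in KrasLA1;Dicer1S2D replicate 1 alone. The last, beyond the gene and overlapping H2-Eb2 (34325349 to 34325697), had 270 and 0 bp in KrasLA1;Dicer1S2D replicates 1 and 2, and 0 and 349 bp in KrasLA1 replicates 1 and 2.

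H2-Ab1 had 3 regions called in all 4 tumours, over and below its lower end. The one over the end (34262894 to 34263547) was 315 and 489 bp in KrasLA1;Dicer1S2D replicates 1 and 2, and 352 and 654 bp in KrasLA1 replicates 1 and 2. The next below (34261449 to 34262002) was 267 and 377 bp in the KrasLA1;Dicer1S2D tumours and 347 and 554 bp in the KrasLA1 tumours, and both regions were widest in KrasLA1 replicate 2 with groups that overlapped. The farthest (34257710 to 34258205) was 478 and 262 bp in the KrasLA1;Dicer1S2D tumours and 469 and 495 bp in the KrasLA1 tumours. Inside the gene, a peak of 176 bp was called in KrasLA1;Dicer1S2D replicate 1 alone and another of 456 bp in KrasLA1 replicate 1 alone. Between H2-Ab1 and H2-Aa, a region of 470 bp (34278992 to 34279461) was called in KrasLA1 replicate 2 alone.

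Cd74, on chromosome 18, had all 3 of its regions called in every tumour. The region over its lower end (60803093 to 60804030) was even, at 890 and 760 bp in KrasLA1;Dicer1S2D replicates 1 and 2 and 758 and 840 bp in KrasLA1 replicates 1 and 2. The region inside the gene (60804763 to 60806679) was not: it was 439 and 603 bp in KrasLA1;Dicer1S2D replicates 1 and 2, and 656 and 1917 bp in KrasLA1 replicates 1 and 2. The genotypes did not overlap, and the centred difference in log2 width, -0.96 ± 0.48 (SE, limma, adjusted p = 0.999, n = 2 tumours each), was the largest of the 22 shared regions. The region beyond the gene (60815310 to 60816188), which overlaps Tcof1, was 676 and 254 bp in KrasLA1;Dicer1S2D replicates 1 and 2, and 879 and 691 bp in KrasLA1 replicates 1 and 2. The genotypes did not overlap there either. How many of all shared regions were narrower in this way, before centring, was not counted.

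Ciita, the longest of the 10 genes (chromosome 16, 10480014 to 10531064), had 10 regions, 4 of them called in every tumour. A pair below the gene was shared, at 10473665 to 10474000 (190 to 336 bp) and 10474892 to 10476015 (651 to 1006 bp). A pair inside it was shared too, at 10489244 to 10490139 (665 to 863 bp) and 10490311 to 10490972 (520 to 660 bp). The region that followed the genotype, 10510569 to 10511037, lay inside the gene, with 0 and 0 bp in KrasLA1;Dicer1S2D replicates 1 and 2, and 332 and 464 bp in KrasLA1 replicates 1 and 2. Its absence from 2 libraries means that no peak passed an unknown threshold there, not that the site was closed. The other Ciita regions were called in 1 library (3 regions), 2 (1 region) or 3 (1 region).

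Summed over the loci, the genotypes differed by less than the spread between tumours. The KrasLA1;Dicer1S2D tumours had 31 and 25 of the 39 regions called in replicates 1 and 2, and the KrasLA1 tumours 27 and 31. The mean was 28.0 ± 4.2 regions for KrasLA1;Dicer1S2D and 29.0 ± 2.8 for KrasLA1 (SD, n = 2 each), a difference of -1.0 (exact two-sided permutation test, p = 1, adjusted p = 1). Bases under peaks were 17392 and 16485 bp in KrasLA1;Dicer1S2D replicates 1 and 2, and 16530 and 25917 bp in KrasLA1 replicates 1 and 2. Here 1 library, KrasLA1 replicate 2, lay far above the other 3, which were close together. The mean was 16938.5 ± 641.3 bp for KrasLA1;Dicer1S2D and 21223.5 ± 6637.6 bp for KrasLA1 (SD, n = 2 each), a difference of -4285 bp (exact two-sided permutation test, p = 0.667, adjusted p = 0.858). Without KrasLA1 replicate 2 the difference was 408.5 bp, of the opposite sign, and that in regions called was 2.0, as it was without the other replicate 2. The test cannot give a p below 0.33 with 2 tumours against 2, and adjustment was over the 9 permutation tests made of regions, bases and bases per region at all, class I and class II loci.

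The excess of KrasLA1 replicate 2 lay mainly at class II loci. At the 26 class II regions, bases under peaks were 9129 and 8296 bp in KrasLA1;Dicer1S2D replicates 1 and 2, and 8729 and 16321 bp in KrasLA1 replicates 1 and 2. The mean was 8712.5 ± 589.0 bp for KrasLA1;Dicer1S2D and 12525.0 ± 5368.4 bp for KrasLA1 (SD, n = 2 each), a difference of -3812.5 bp (exact two-sided permutation test, p = 0.667, adjusted p = 0.858). At the 13 class I regions the values were 8263 and 8189 bp in KrasLA1;Dicer1S2D replicates 1 and 2, and 7801 and 9596 bp in KrasLA1 replicates 1 and 2. The mean was 8226.0 ± 52.3 bp for KrasLA1;Dicer1S2D and 8698.5 ± 1269.3 bp for KrasLA1 (SD, n = 2 each), a difference of -472.5 bp (exact two-sided permutation test, p = 1, adjusted p = 1). Class I regions were called 12 and 10 times in the KrasLA1;Dicer1S2D tumours and 9 and 10 times in the KrasLA1 tumours, with 688.6 and 818.9 bp per called region in the KrasLA1;Dicer1S2D tumours and 866.8 and 959.6 bp in the KrasLA1 tumours. Bases per called class I region thus did not overlap between the genotypes, at the smallest p the exact permutation test allows (p = 0.33, adjusted p = 0.858).

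Scaling to the bases under all peaks of a library removed much of the difference and turned its sign at the class I loci. For all 10 loci the values were 696.9 and 868.7 bp per Mb under peaks in KrasLA1;Dicer1S2D replicates 1 and 2, and 728.7 and 930.3 bp per Mb in KrasLA1 replicates 1 and 2 (exact two-sided permutation test, p = 0.667). Class II loci had 365.8 and 437.2 bp per Mb in the KrasLA1;Dicer1S2D tumours, and 384.8 and 585.9 bp per Mb in the KrasLA1 tumours, with KrasLA1 replicate 2 still the highest. Class I loci had 331.1 and 431.5 bp per Mb in the KrasLA1;Dicer1S2D tumours, and 343.9 and 344.5 bp per Mb in the KrasLA1 tumours, a difference of 37.1 bp per Mb (exact two-sided permutation test, p = 1).

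**Figure D3:**
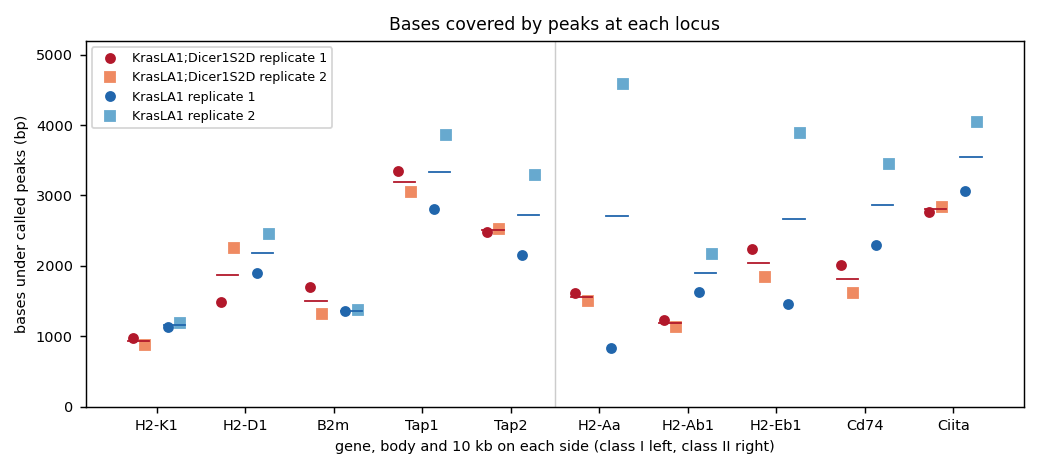
Bases under called peaks (bp) at each of the 10 loci, body and 10 kb on each side, with 1 point per library and a line at each group mean (n = 2 each). At H2-Aa and H2-Eb1 the point of KrasLA1 replicate 2 stands alone, at 4590 and 3887 bp, and the class I points lie closer together.

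Gene by gene, mean bases under peaks were lower in KrasLA1;Dicer1S2D tumours at 9 of 10 loci, all but B2m, but at 6 of 10 after scaling to the library, when H2-D1, Tap1 and Tap2 turned higher. The median log2 ratio of KrasLA1;Dicer1S2D to KrasLA1 was -0.33 over the 10 genes and -0.18 over all genes, and -0.11 and 0.03 after scaling. KrasLA1 replicate 2 had the most bases at 9 of the 10 loci, and at 53.1% of all genes. Scaled, it was highest at 4 of the 10 and at 20.8% of all genes. The groups did not overlap at 4 loci, H2-K1, H2-Ab1, Cd74 and Ciita, each lower with the Dicer1S2D allele, and 27.9% of all genes were lower in this way. At 0 of the 10 loci were they higher without overlap, as at 1.95% of all genes. After scaling, H2-Ab1 and Cd74 were lower without overlap, against 10% of all genes, and B2m was higher without overlap, against 10.5%.

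At each of these 3 loci both scaled values of 1 genotype lay below both of the other. H2-Ab1 had 49.5 and 59.4 bp per Mb in KrasLA1;Dicer1S2D replicates 1 and 2, and 71.6 and 78.0 bp per Mb in KrasLA1 replicates 1 and 2. Cd74 had 80.3 and 85.2 bp per Mb in the KrasLA1;Dicer1S2D tumours, and 101.1 and 123.8 bp per Mb in the KrasLA1 tumours. B2m had 67.9 and 69.5 bp per Mb in the KrasLA1;Dicer1S2D tumours, and 59.8 and 49.3 bp per Mb in the KrasLA1 tumours. The loci were picked because their values did not overlap. With 2 tumours against 2, that always gives an exact two-sided permutation p of 0.33, the smallest possible. The p therefore adds nothing to the choice, and it was not adjusted.

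Peak width gave a test across the genome, on the 26402 autosomal regions called in every tumour, 22 of them at these loci. At an adjusted p under 0.05, limma called 0 of the 22, and 0 (0%) of all 26402 regions. At an unadjusted p under 0.05 it had 0 of the 22 and 770 of all regions (2.92%). The median difference in centred log2 width, KrasLA1;Dicer1S2D minus KrasLA1, was -0.01 over the 22 regions and 0.04 over all, and 12 of the 22 were below 0, against 43.5% of all. Without centring the medians were -0.17 and -0.12, with 18 of the 22 and 73.1% of all below 0. Relative to the mean of the other 3 libraries, KrasLA1 replicate 2 had a median centred log2 width of 0.27 at the 14 shared class II regions, -0.04 at the 8 shared class I regions and -0.06 over all shared regions. It was more than 1 log2 unit wider at 2 of the 14 class II regions, 0 of the 8 class I regions and 2.04% of all. This comparison was chosen after its values were seen.

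**Figure D4:**
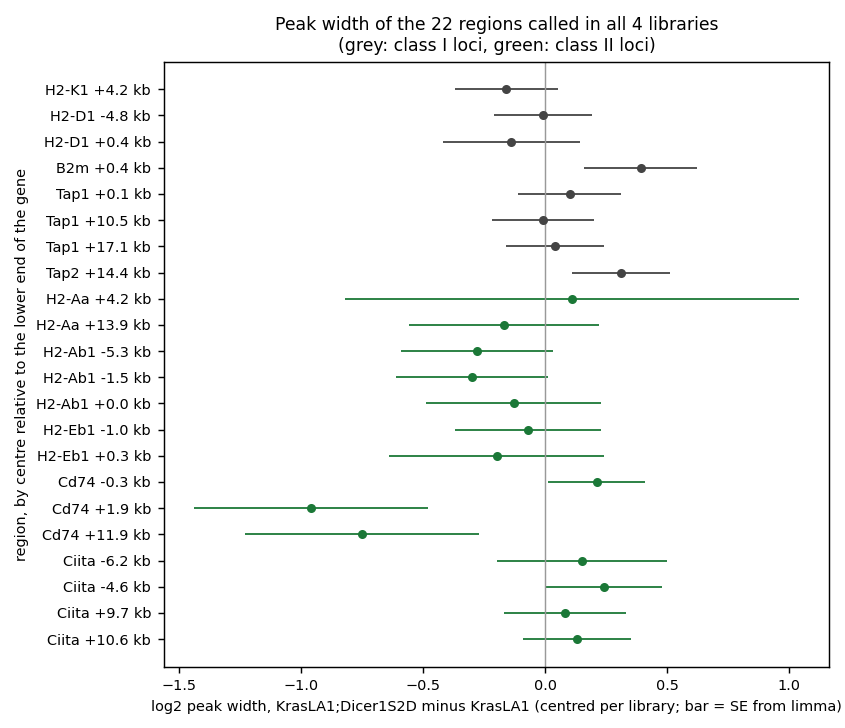
Difference in log2 peak width between KrasLA1;Dicer1S2D and KrasLA1 tumours at the 22 regions called in all 4 libraries, centred on each library's median, with bars for the SE from limma (n = 2 each). Most points lie within 1 SE of 0, the region inside Cd74 is the lowest at -0.96, and the start site of H2-Aa has the longest bar.

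Of 52 further genes of the pathway, 51 had a region and 40 had a peak in all 4 tumours less than 2 kb from an end, as 71.2% of all genes with a region did. In all 4 tumours 101 of their 166 regions were called, a larger share than the 43.5% of all autosomal regions, which include those far from genes. None had a region found in each KrasLA1;Dicer1S2D tumour and absent from each KrasLA1 tumour, against 1.78% of all genes, and 1 had the reverse, against 4.87%. That gene was Irf2, a factor that binds interferon response elements, with a region 1432 bp beyond the gene (chromosome 8, 46848890 to 46849124) of 0 and 0 bp in KrasLA1;Dicer1S2D replicates 1 and 2, and 232 and 203 bp in KrasLA1 replicates 1 and 2. Irf2 held 16 regions in all. The median log2 ratio of bases under peaks was -0.23 over the 51 genes, next to -0.18 over all genes.

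Among class I processing genes, all 12 had a peak at a gene end in every tumour, as 71.2% of all genes did. Tapbp, which encodes tapasin, the bridge between the transporter and class I molecules, had 3865 and 3241 bp under peaks in KrasLA1;Dicer1S2D replicates 1 and 2, and 3901 and 5010 bp in KrasLA1 replicates 1 and 2. Psmb9 had 1628 and 1210 bp in the KrasLA1;Dicer1S2D tumours and 1265 and 1294 bp in the KrasLA1 tumours, and Psmb8, whose window takes in the same regions as that of Tap1, had the same values as Tap1. Nlrc5, the class I counterpart of Ciita, had 3033 and 3185 bp in the KrasLA1;Dicer1S2D tumours, and 2550 and 4956 bp in the KrasLA1 tumours. KrasLA1 replicate 2 had the most bases at Nlrc5 and Tapbp, and the groups overlapped at Nlrc5 and Psmb9. Tapbp was lower without overlap, as 27.9% of all genes were, also after scaling, as 10% were, at 154.9 and 170.8 bp per Mb in the KrasLA1;Dicer1S2D tumours, and 172.0 and 179.8 bp per Mb in the KrasLA1 tumours. Scaled, Psmb9 was higher without overlap, as 10.5% of all genes were, with 65.2 and 63.8 bp per Mb in the KrasLA1;Dicer1S2D tumours, and 55.8 and 46.4 bp per Mb in the KrasLA1 tumours. Its bases all lay in regions also counted for Tap1, so they are not a separate observation. At Tap1 the scaled groups overlapped, with 133.9 and 160.7 bp per Mb in the KrasLA1;Dicer1S2D tumours, and 124.1 and 138.6 bp per Mb in the KrasLA1 tumours.

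Of 13 other class I heavy-chain genes, H2-Q1 and H2-Q10 lacked a region in some tumours. H2-Q1 had 451 and 0 bp under peaks in KrasLA1;Dicer1S2D replicates 1 and 2, and 0 and 796 bp in KrasLA1 replicates 1 and 2, and H2-Q10 had 508 bp in KrasLA1 replicate 2 and 0 in the other 3. Of 9 class II loading and processing genes, H2-Ob, a chain of the H2-O molecule that restrains peptide loading, had 304 and 247 bp in the KrasLA1;Dicer1S2D tumours, and 0 and 811 bp in the KrasLA1 tumours. Bases under peaks at these 3 genes were highest in KrasLA1 replicate 2.

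Among regulators, Rfx5, the X-box factor subunit, had 941 and 856 bp in KrasLA1;Dicer1S2D replicates 1 and 2, and 1330 and 1534 bp in KrasLA1 replicates 1 and 2, and no library had a peak within 2 kb of its gene ends. Its partner Rfxap had no region. Irf1, an interferon-induced factor, had 3145 and 3398 bp in the KrasLA1;Dicer1S2D tumours, and 2643 and 3628 bp in the KrasLA1 tumours. Rfx5 was lower without overlap, as 27.9% of all genes were, and the groups overlapped at Irf1. Scaled, Rfx5 was still lower without overlap, as 10% of all genes were, with 37.7 and 45.1 bp per Mb in the KrasLA1;Dicer1S2D tumours, and 58.6 and 55.1 bp per Mb in the KrasLA1 tumours.

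**Figure D5:**
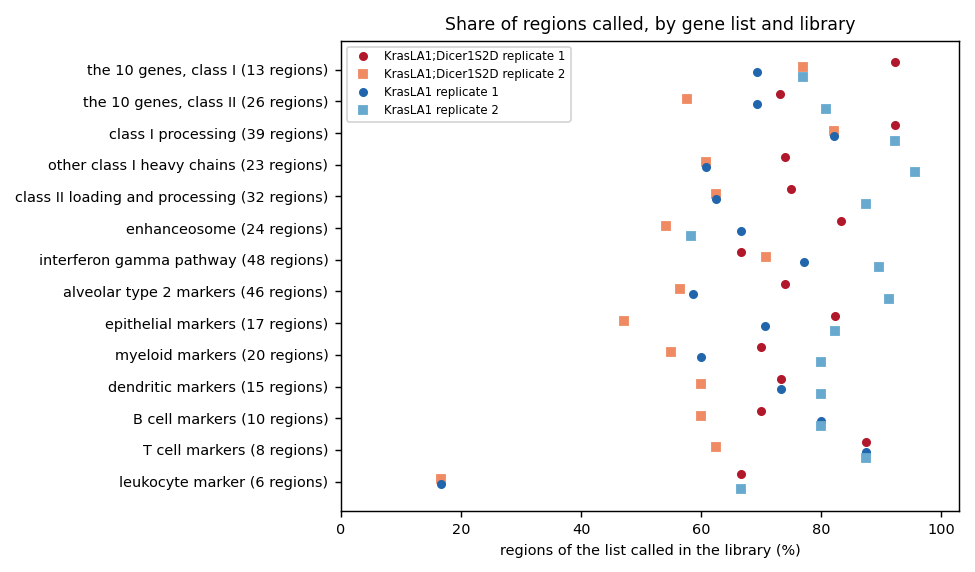
Percent of the regions of each gene list that were called in each library, with 1 point per library. KrasLA1 replicate 2 lies at or near the right of most rows, KrasLA1;Dicer1S2D replicate 2 at or near the left, and in the rows of the 10 genes the genotypes overlap or share a value.

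Class II genes are used by immune cells and by alveolar type 2 cells, so markers of both were measured beside them. In bulk tissue, fewer cells of a type and less open chromatin per cell cannot be told apart. At alveolar type 2 genes, 25077 and 20978 bp lay under peaks in KrasLA1;Dicer1S2D replicates 1 and 2, and 22102 and 36201 bp in KrasLA1 replicates 1 and 2. KrasLA1 replicate 2 was the highest there, as at the class II loci, also after scaling, with 1004.8 and 1105.5 bp per Mb in the KrasLA1;Dicer1S2D tumours, and 974.4 and 1299.5 bp per Mb in the KrasLA1 tumours. At 7 myeloid genes the values were 5808 and 5055 bp in the KrasLA1;Dicer1S2D tumours, and 5580 and 8607 bp in the KrasLA1 tumours, and scaled they were 232.7 and 266.4 bp per Mb in the KrasLA1;Dicer1S2D tumours, and 246.0 and 309.0 bp per Mb in the KrasLA1 tumours. Lyz2, lysozyme of macrophages and alveolar type 2 cells, had 830 and 787 bp in the KrasLA1;Dicer1S2D tumours, and 0 and 2100 bp in the KrasLA1 tumours, so that, as at H2-Aa, the KrasLA1 tumours were the lowest and the highest.

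Dendritic genes had 7904 and 7617 bp under peaks in KrasLA1;Dicer1S2D replicates 1 and 2, and 9031 and 9198 bp in KrasLA1 replicates 1 and 2. B cell genes had 2910 and 2944 bp in the KrasLA1;Dicer1S2D tumours, and 3800 and 4698 bp in the KrasLA1 tumours. T cell genes had 3583 and 2074 bp in the KrasLA1;Dicer1S2D tumours, and 4343 and 4404 bp in the KrasLA1 tumours. All 3 lists were thus lower with the Dicer1S2D allele, without overlap, as 27.9% of all single genes were. No such share was counted for sums over lists. Much of the dendritic sum lay at Zbtb46, with 4337 and 4605 bp in the KrasLA1;Dicer1S2D tumours, and 5704 and 6027 bp in the KrasLA1 tumours. Xcr1 was also lower without overlap, and the groups overlapped at Batf3 and Irf8. Of all genes with a region, 71.2% had a peak at a gene end in every library. In these lists, 2 of 4 dendritic, 1 of 5 B cell and 0 of 4 T cell genes with a region did. After scaling, when 10% of all genes were lower without overlap, the groups overlapped for the dendritic genes. Scaled, B cell genes had 116.6 and 155.1 bp per Mb in the KrasLA1;Dicer1S2D tumours, and 167.5 and 168.6 bp per Mb in the KrasLA1 tumours, and T cell genes were also lower without overlap. Epithelial genes had 9444 and 6803 bp in the KrasLA1;Dicer1S2D tumours, and 8815 and 10709 bp in the KrasLA1 tumours. Scaled, they too were lower without overlap, with 378.4 and 358.5 bp per Mb in the KrasLA1;Dicer1S2D tumours, and 388.6 and 384.4 bp per Mb in the KrasLA1 tumours. Adgre1, Flt3, Itgax, Ccr7, Cd3e and Cd8a had no region in any library, and Marco and Ms4a1 had one in KrasLA1 replicate 2 alone. Ptprc, the leukocyte antigen CD45, had 1433 and 311 bp in the KrasLA1;Dicer1S2D tumours, and 316 and 1470 bp in the KrasLA1 tumours, following neither genotype. The part of these cell types in the values at class II loci was not tested.

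Single marker regions found in each KrasLA1 tumour and absent from each KrasLA1;Dicer1S2D tumour lay at Nkx2-1, Slc34a2, Cdh1, Spi1 and Zbtb46, 1 each, which is 5 of the 32 marker genes with a region, against 4.87% of all genes. The reverse kind lay at 0 of the 32, against 1.78% of all genes. Nkx2-1, Slc34a2, Cdh1, Spi1 and Zbtb46 held 5 to 8 regions each, and the median over all genes with a region was 3. Slc34a2, a phosphate transporter of alveolar type 2 cells, was high in KrasLA1 replicate 2, with 2234 and 1126 bp in KrasLA1;Dicer1S2D replicates 1 and 2, and 1466 and 5198 bp in KrasLA1 replicates 1 and 2.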

How the data were processed

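ATAC-seq peaks of 4 lung tumours, 2 per genotype, were analysed. Groups, replicate numbers and sex came from the labels. Per the file headers, the deposited table has 5 tracks of intervals in mm10, 1 of peaks per library and 1 of merged regions, and other per-sample columns numbered 0. BWA (0.7.12), deepTools (3.5.1) and the peak caller MACS3 (3.0.0) are listed in the submitters' processing notes. Their settings, the peak threshold, any shift of reads for the transposase and read numbers are not given. Because a library with fewer reads can lose peaks, absence of a peak is weak evidence, and precision per value is unknown.

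Peaks overlapping by 1 bp or more were merged, which gave the authors' 61972 regions. Coordinates are counted from 1. Genes and promoters came from RefSeq tables of GRCm38.p6, which shares its primary sequence with mm10, without exons. Totals per library were compared by exact permutation (two-sided), and log2 of summed peak width per region, centred on each library's median, with limma 3.58.1 (R 4.3.3) and Benjamini-Hochberg adjustment over all shared autosomal regions. Nothing says that samples sharing a number were paired, and p-values measure the spread between these tumours. Other software was matplotlib 3.10.9, scipy 1.17.1, numpy 2.4.6 and Python 3.11.15. The steps were tested on simulated data.

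The members, the lists and the rule for named genes were chosen with earlier results of these data known. The rule named the 10 genes, further pathway genes with a region of 1 genotype only or with none in some library, Nlrc5, Rfx5, Psmb8, Psmb9, Tapbp and Irf1, and marker genes with a region of 1 genotype only. A further gene that it named is not reported here. Lyz2, Marco, Ms4a1, Ptprc and the markers without a region were named after their values were seen. Scaling to the bases under all peaks was chosen after seeing the data.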

Additional observations from a re-analysis of the deposited data

Results flagged for a closer look

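Unscaled, some differences between genotypes had opposite signs in the female pair (replicates 1) and the male pair (replicates 2) of tumours. These were bases under peaks, and regions called except at class I loci. With 1 tumour of each genotype per sex, this difference between the sexes was not tested. Bases per called region did not show it: they were lower in KrasLA1;Dicer1S2D in both pairs, at all, class I and class II loci. Class I regions called were 12 against 9 in the female pair and 10 against 10 in the male pair. Regions called at the 10 loci, KrasLA1;Dicer1S2D minus KrasLA1, differed by 4 in the female pair and by -6 in the male pair, and those at class II loci by 1 and -6. Bases under peaks differed by 862 bp in the female pair and by -9432 bp in the male pair at all 10 loci, by 462 and -1407 bp at class I loci, and by 400 and -8025 bp at class II loci. Per Mb under all peaks the signs were alike at all 10 loci (-31.9 in the female pair and -61.6 in the male pair) and at class II loci (-19.0 and -148.7), and opposite at class I loci (-12.8 and 87.1).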

How the results depend on the processing

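Merging peaks across gaps of up to 500 bp, a minimum width of 200 bp, taking an equal number of the widest peaks or the widest 75% from each library, the gene body alone and a window of 5 kb left the sign of the differences in regions called (-0.5 to -3.0) and in bases (-3151 to -4729.5 bp), 0 regions of KrasLA1;Dicer1S2D alone and 1 of KrasLA1 alone. Per Mb under peaks the difference in bases was -46.7. With each library left out in turn, the difference in regions ran from -4.0 to 2.0 (2.0 without either replicate 2), and that in bases from -8978.5 to 408.5 bp (408.5 without KrasLA1 replicate 2). Regions called only in KrasLA1;Dicer1S2D ran from 0 to 4 and those only in KrasLA1 from 1 to 4, since fewer libraries then decide a call. Leaving out KrasLA1;Dicer1S2D replicate 2 gave 4 and 1, leaving out KrasLA1 replicate 1 gave 0 and 4, and leaving out KrasLA1 replicate 2 gave 3 and 4. No share of all autosomal regions was counted for these settings.

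The test of width called 0 regions at these loci under every alternative that kept all 4 libraries, including the replicate block. With that block, 2 of 22 had an unadjusted p under 0.05 by limma, against 1192 of all 26402 regions (4.51%). With each library left out in turn, the median difference in centred log2 width over the 22 regions ran from -0.04 to 0.08. Same-numbered tumours share a number and a sex, and nothing says that they were handled together. The deviations of both replicates 1 from their group means had a correlation of 0.12 over 26402 regions. The unknown read depth limits every statement on absent peaks.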
